A study of Homo sapiens with 12 samples.

Results

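The epidermal differentiation complex is a dense cluster of genes on the long arm of human chromosome 1 that supplies much of the outer layer of the skin. It was taken here as an interval of 1.7 Mb on chromosome 1 of the hg38 build, whose outermost member genes are S100A11 (start 152032506) and NPR1 (end 153693992). Its members are the protein-coding genes whose RefSeq span lies inside it, and its peaks are the PPARγ peaks whose summit falls in it. The interval was selected on where peaks lay in these lists, and genes and peaks were then chosen by position. Of 19970 protein-coding genes on chromosomes 1 to 22 and X, 66 were members. Of the peaks, 5 of 2846 in the pooled list of the KQ mutant and 26 of 25164 in the pooled list of wild-type PPARγ had their summit in the interval. A pooled peak is called reproducible where a peak of both single libraries of its group overlapped it by 1 bp or more.

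PPARγ is a nuclear receptor that binds DNA as a heterodimer with RXR, on a direct repeat of the half-site AGGTCA with a single spacer base. All cells were MCF10A-NeuT, human mammary epithelial cells that carry the NeuT oncogene, infected with a retrovirus made from pMSCV-IRES-GFP. The KQ cells stably expressed PPARγ K154/155Q, in which a pair of neighbouring lysines is replaced by glutamine and which the series' design text calls acetylation deficient, and the other cells stably expressed wild-type PPARγ. Both were kept in DMEM with fetal bovine serum, and no ligand was named. Chromatin immunoprecipitation (ChIP) and sequencing gave 2 libraries per group. The antibody label and the extraction protocol name an antibody to PPARγ, whereas the series' design text names one to the Flag tag. With the first of these, the endogenous receptor would be precipitated too, in both groups. The vector ChIP and the input libraries were not analysed here. The peak lists hold no expression values, so the cell line was not checked against its markers. The labels do not say that the libraries came from separate cultures, so their spread may be technical. A weaker peak could be binding in fewer cells or less binding per cell, which cannot be told apart.

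The complex holds several families that are switched on as keratinocytes leave the basal layer. LCE (late cornified envelope) and SPRR (small proline-rich) proteins, involucrin (IVL) and loricrin (LORICRIN) are cross-linked by transglutaminases into the cornified envelope, and the fused-type proteins, with filaggrin (FLG) the best known, bind keratin filaments or join the envelope. S100 proteins are small calcium-binding proteins, of which S100A8 and S100A9 form calprotectin, and PGLYRP3 and PGLYRP4 are secreted peptidoglycan recognition proteins that kill bacteria. PPAR ligands are known to promote keratinocyte differentiation. The members were 15 S100, 19 LCE, 11 SPRR and 7 fused-type genes, 2 PGLYRP genes, 8 other envelope genes and 4 neighbours (NPR1, ILF2, SNAPIN and CHTOP).

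Reproducible wild-type peaks lay at the start sites of LCE3A, a cornified envelope gene, and of S100A9, and peaks that were not reproducible lay just upstream of an annotated start of S100A16, a calcium-binding protein made in many tissues (pooled list and library 1), and of S100A6, also called calcyclin (pooled list only). The 250 bases before these starts are shown because pooled wild-type summits lay in them, as RefSeq GRCh38.p14 gives them, 5′ to 3′ on the strand of the gene. Capitals mark the 13 bases closest to a direct repeat of AGGTCA with 1 base between (DR1), on either strand, a measure chosen after the sequences had been seen. The LCE3A stretch is chr1:152623104-152623353 on the minus strand, that of S100A9 is chr1:153357604-153357853 on the plus strand, that of S100A16 is chr1:153609356-153609605 on the minus strand and that of S100A6 is chr1:153535992-153536241 on the minus strand.
LCE3A: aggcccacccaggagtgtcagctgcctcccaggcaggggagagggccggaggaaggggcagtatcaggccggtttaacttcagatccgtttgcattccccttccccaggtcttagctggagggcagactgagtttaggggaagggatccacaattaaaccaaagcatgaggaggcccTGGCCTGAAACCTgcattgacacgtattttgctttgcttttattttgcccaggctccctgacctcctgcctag
S100A9: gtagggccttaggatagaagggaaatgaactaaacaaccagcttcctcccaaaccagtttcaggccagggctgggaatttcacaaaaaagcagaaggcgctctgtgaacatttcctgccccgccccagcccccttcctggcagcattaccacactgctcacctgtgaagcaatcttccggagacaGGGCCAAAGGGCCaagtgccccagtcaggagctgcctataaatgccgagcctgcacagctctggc
S100A16: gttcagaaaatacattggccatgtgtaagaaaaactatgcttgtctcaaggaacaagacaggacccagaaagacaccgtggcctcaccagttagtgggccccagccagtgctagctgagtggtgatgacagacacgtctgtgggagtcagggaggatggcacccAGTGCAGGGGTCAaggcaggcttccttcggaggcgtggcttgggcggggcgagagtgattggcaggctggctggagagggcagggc
S100A6: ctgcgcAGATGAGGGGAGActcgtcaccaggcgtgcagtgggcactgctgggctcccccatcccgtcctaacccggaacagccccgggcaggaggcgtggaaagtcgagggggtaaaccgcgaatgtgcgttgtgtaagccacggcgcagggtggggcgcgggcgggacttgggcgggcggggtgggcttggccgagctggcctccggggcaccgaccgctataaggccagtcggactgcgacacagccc

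Positions are counted in bp from the start of the gene, negative before it. The closest match had 3 mismatches at LCE3A, at -73 to -61, with the pooled wild-type summit at -65. It had 4 mismatches at S100A9, at -65 to -53, with the summit at -80. It had 3 mismatches at S100A16, at -86 to -74, with the summit at -101. It had 5 mismatches at S100A6, at -244 to -232, with the summit at -132. Such matches are common. Of 22155 promoters in the table, 16.4% held a match with 3 or fewer mismatches, 66.4% one with 4 or fewer and 99.3% one with 5 or fewer. Among 71 promoters of 62 member genes the counts were 17, 55 and 71. The exact repeat was found on either strand in 0 of the 71 and in 0.0226% of all promoters of 300 bases. The bare half-site AGGTCA was found in 15 of the 71, LCE3A among them, and in 11.9% of all. A match describes these letters only, and no sequence is shown for peaks away from a start site.

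The KQ lists held 3 peaks in library 1 and 1 in library 2 with a summit in the interval, a mean of 2 ± 1.41 (SD, n = 2). The wild-type lists held 18 in library 1 and 12 in library 2, a mean of 15 ± 4.24 (SD, n = 2). All wild-type libraries stood above all KQ libraries. The wild-type mean was 7.5 times the KQ mean in the interval and 15.7 times over all chromosomes, and the pooled lists stood in a ratio of 5.2 in the interval and 8.84 overall. The interval was chosen with these lists in view and 2 libraries against 2 cannot give an exact permutation p below 0.33, so these counts are a description with no test. Relative to its length of 1.7 Mb the interval held 2.94 pooled KQ peaks per Mb, where chromosome 1 as a whole held 1.37. For wild type it held 15.3 per Mb, where chromosome 1 held 10.4. By library the interval and chromosome 1 held 1.76 and 0.651 per Mb in KQ library 1 and 0.588 and 0.422 in KQ library 2. They held 10.6 and 7.44 in wild-type library 1 and 7.06 and 7.20 in wild-type library 2, so the higher density was not seen in wild-type library 2. The caller's expected tags at peaks were also higher in the interval than over all chromosomes in every list. Their medians were 4.80 against 4.12 in the pooled KQ list and 2.75 against 1.98 in the pooled wild-type list. The length of chromosome 1 was taken from its first to its last gene, with gene-free stretches counted. Copy number was not examined, and the cause of the density was not tested.

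Of the 5 pooled KQ peaks, 1 was reproducible, against 12.4% of all pooled KQ peaks. Without KQ library 2, 3 of the 5 were found in library 1, and without KQ library 1 the count stayed at 1. Of the 26 pooled wild-type peaks, 8 were reproducible, 30.8% with an exact (Clopper-Pearson) 95% interval of 14.3% to 51.8%, close to the 31.9% of all pooled wild-type peaks. A further 8 wild-type peaks were found in library 1 only, 2 in library 2 only and 8 in neither. Without wild-type library 2, 16 of the 26 were found in library 1. These intervals cover counting error only.

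All 5 pooled KQ peaks overlapped a pooled wild-type peak, where 80.4% of all pooled KQ peaks did. In the other direction 5 of the 26 pooled wild-type peaks overlapped a KQ peak, 19.2% with an exact interval of 6.55% to 39.4%, against 9.1% of all pooled wild-type peaks. Of the 8 reproducible wild-type peaks it was 3, 37.5% with an exact interval of 8.52% to 75.5%, against 20.1% genome-wide. Both genome-wide shares lie inside these intervals. The wild-type list is the longer one. Shortened by q-value to the 2846 strongest peaks it held 5 in the interval, and 4 of these overlapped a KQ peak. The share over all peaks of the shortened list is not given here, so this count does not set the interval apart.

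**Figure D1:**
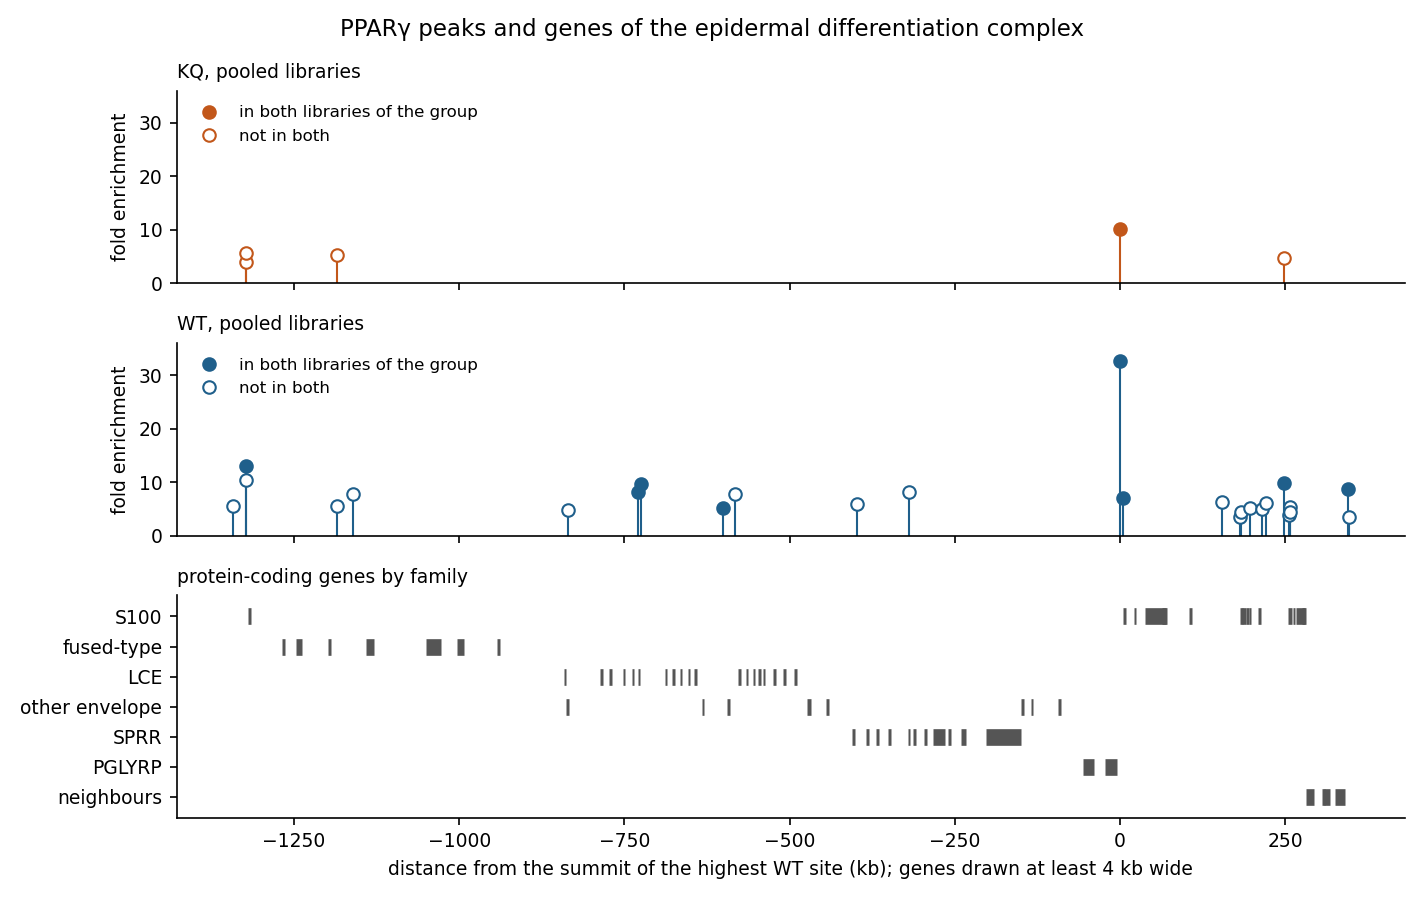
Pooled peaks across the epidermal differentiation complex, KQ above wild type (WT). The x axis is distance in kb from the pooled wild-type summit of the site between PGLYRP4 and S100A9, the height of each line is the authors' fold enrichment in that list, filled points are reproducible peaks, open points are the others, and the lowest panel shows member genes by family, drawn at least 4 kb wide. The 5 KQ peaks lie at 4 places, each of them also marked in the wild-type panel, and the tallest line of both panels stands at 0.

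The strongest site lay between PGLYRP4 and S100A9, 3.79 kb upstream of the PGLYRP4 start. In the KQ lists its fold enrichment over the caller's background was 9.74 in library 1, 8.47 in library 2 and 10.2 in the pooled list (chr1:153352499-153352755). In the wild-type lists it was 24.3 in library 1, 35.2 in library 2 and 32.6 in the pooled list (chr1:153352473-153352803). It was the one place in the interval with a peak in all 4 libraries. By q-value it ranked 22 of 2846 in the pooled KQ list and 1 of 25164 in the pooled wild-type list. Ranks in lists of unequal length show no change. Its fold was 2.11 times the median of the pooled KQ list and 5.31 times the median of the pooled wild-type list. The pooled summits stood 11 bp apart, so the pooled lists of both groups had their peak at nearly the same position.

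The read tags behind each value can be recovered from the deposited fold and p-value, as described in the processing section. At the site between PGLYRP4 and S100A9 the KQ lists gave 39 tags in library 1 (95% Poisson interval 27.7 to 53.3) where 3.10 were expected, 27 in library 2 (17.8 to 39.3) where 2.30 were expected, and 58 in the pooled list where 4.80 were expected. The wild-type lists gave 80 tags in library 1 (63.4 to 99.6) where 2.34 were expected, 50 in library 2 (37.1 to 65.9) where 0.448 were expected, and 109 in the pooled list where 2.37 were expected. Tags are not scaled for depth, and the lowest expected value in a list was 0.613 and 0.588 in the KQ libraries and 0.354 and 0.145 in the wild-type libraries. Both KQ libraries had fewer tags than either wild-type library, with expected tags near or above those of wild type. In both groups the pooled value is below the sum of the libraries, and the authors' way of pooling was not given in the sources used here. For wild-type library 2 a further whole number also solved the equations, and the closer was taken.

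**Figure D2:**
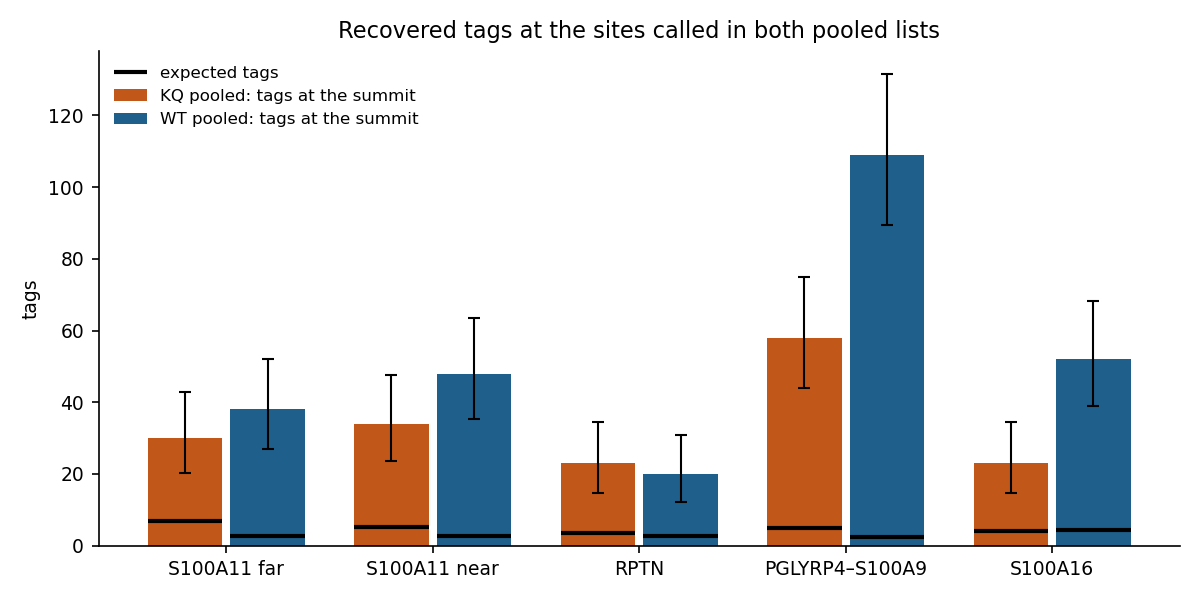
Tags at the summit for the 5 sites with a peak in both pooled lists, KQ bars left of wild-type (WT) bars. The y axis is recovered tags in the pooled lists, error bars are 95% Poisson intervals and the black lines are the tags expected by the caller. At the site between PGLYRP4 and S100A9 the bars reach 58 in KQ and 109 in wild type, and at RPTN they reach 23 in KQ and 20 in wild type.

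The second reproducible site of the defence genes, at the start of S100A9 (chr1:153357639-153357867), had no KQ peak in any list. Its fold was 5.81 in wild-type library 1, 6.08 in library 2 and 7.06 in the pooled list, from 15, 7 and 20 tags. It was a peak of ordinary height, 1.15 times the median of the pooled wild-type list. S100A12, a ligand of the receptor RAGE, and S100A8 had this pair of sites as the only reproducible wild-type peaks within 50 kb of their spans.

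S100A11, a calcium-binding protein that is also built into the cornified envelope, had a pair of peaks downstream of its end. The nearer, 2.65 kb outside the gene, had a fold of 5.56 in KQ library 1 and 5.67 in the pooled KQ list (chr1:152029723-152029955), with no peak in KQ library 2. In wild type its fold was 9.69 in library 1, 9.81 in library 2 and 13.01 in the pooled list (chr1:152029737-152030023). The site was thus reproducible in wild type and rested on 1 library in KQ, with 34 pooled tags over 5.18 expected in KQ and 48 over 2.77 in wild type. The farther site had a fold of 3.94 in the pooled KQ list and in neither KQ library (chr1:152029313-152029514). In wild type its fold was 13.2 in library 1 and 10.5 in the pooled list (chr1:152029164-152029540), with no peak in library 2. The pooled tags there were 30 over 6.86 expected in KQ and 38 over 2.73 in wild type. The lower KQ fold thus went with more expected tags as well as fewer tags. Poisson intervals of the pooled tags in KQ and wild type overlapped at both sites. They were 20.2 to 42.8 and 26.9 to 52.2 at the farther site, and 23.5 to 47.5 and 35.4 to 63.6 at the nearer.

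At the other end of the S100 genes a site 5.4 kb downstream of S100A16 had a fold of 4.69 in the pooled KQ list (chr1:153601401-153601584) and no peak in either KQ library. In wild type its fold was 9.32 in library 1, 5.97 in library 2 and 9.91 in the pooled list (chr1:153601362-153601626). The pooled summits stood 6 bp apart, with 23 tags over 4.12 expected in KQ and 52 over 4.35 in wild type.

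Apart from this site, the S100 genes from S100A6 to S100A16 had peaks in the wild-type lists only. Chains of 3 or more pooled wild-type peaks, with neighbouring summits at most 50 kb apart, were found at 2 places, both among S100 genes. The first held 3 peaks near S100A10 and S100A11, and the second held 10 peaks over 103 kb from near S100A6 to S100A16. Only peaks inside the interval were chained. A further pooled wild-type peak lies 4.85 kb below the limit, so the limit cuts the first chain. How often such chains occur elsewhere was not counted. Folds in the second ran from 3.52 to 9.91, and 1 of its 10 peaks, the one downstream of S100A16, was reproducible. The peaks at the starts of S100A6 and of S100A3, a protein of the hair cuticle, had pooled folds of 4.39 and 5.14. S100A16 carried a peak in library 1 at its start (fold 6.84) and a different one in library 2 inside the gene (fold 4.97), 386 bp past the start in the pooled list.

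Repetin (RPTN), a fused-type envelope protein, had a site of much the same fold in both pooled lists. It lay 8.81 kb upstream of RPTN and had a fold of 6.55 in KQ library 1 and 5.35 in the pooled KQ list (chr1:152167956-152168134), with no peak in KQ library 2. In wild type its fold was 5.58 in the pooled list (chr1:152167978-152168115), with no peak in either library. That is 1.11 times the median of the pooled KQ list and 0.907 times the median of the pooled wild-type list. The tags were 23 over 3.49 expected in KQ and 20 over 2.77 in wild type, with overlapping 95% Poisson intervals of 14.6 to 34.5 and 12.2 to 30.9. No list had a summit inside a fused-type gene. Filaggrin lies in a stretch of 326 kb from near HRNR to CRCT1 with no pooled peak of either group.

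The LCE genes had 0 KQ peaks in any list within 50 kb, and the only reproducible wild-type peaks with an LCE gene nearest were the pair at LCE3A. The peak at its start (chr1:152623026-152623256) had a fold of 7.58 in wild-type library 1, 6.91 in library 2 and 8.24 in the pooled list, from 11, 9 and 17 tags. The summit was 55 bp past the start in library 1 and 42 bp before it in library 2. The peak 5.2 kb upstream (chr1:152628206-152628414) had a fold of 6.46 in library 1, 8.29 in library 2 and 9.69 in the pooled list, with library summits 1 bp apart. At LCE1F, of the same family, a peak 5.77 kb upstream was found in library 1 only, with a pooled fold of 7.75.

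Other envelope genes had a single reproducible wild-type peak, 5.54 kb upstream of KPRP, a keratinocyte proline-rich protein (chr1:152752364-152752575). Its fold was 4.41 in wild-type library 1, 6.13 in library 2 and 5.20 in the pooled list, below the median of that list. SPRR1B, an envelope precursor, had a peak 0.237 kb outside its end in library 1 only, with a pooled fold of 8.07, and the SPRR genes had no reproducible peak within 50 kb. The stretches without pooled peaks included 185 kb holding involucrin and 319 kb holding loricrin and the SPRR2 genes. NPR1, the receptor for atrial natriuretic peptide, is a neighbour outside the envelope families. A site 3.39 kb past its end (chr1:153697251-153697536) had a fold of 10.5 in wild-type library 1, 4.66 in library 2 and 8.79 in the pooled list, and no KQ peak.

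**Figure D3:**
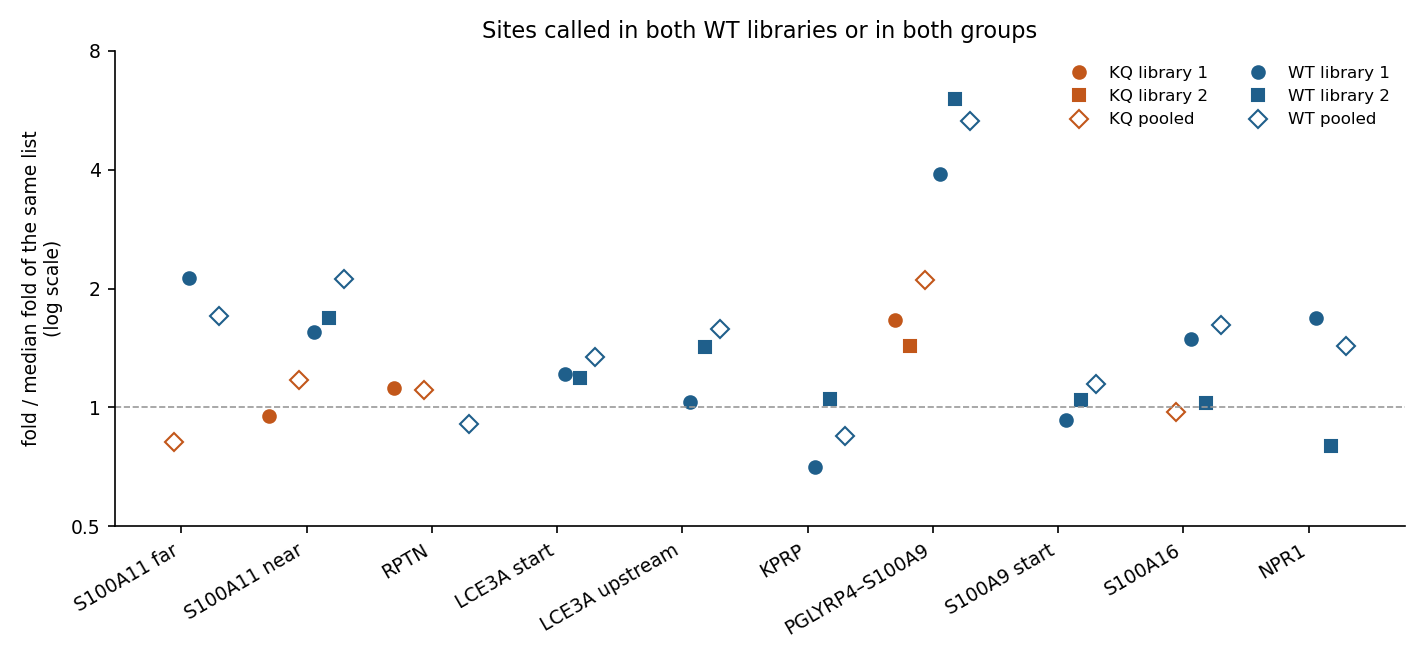
Fold enrichment at the named sites of the complex, each divided by the median fold of its own list, KQ points left of wild-type (WT) points. The y axis is on a log scale, circles and squares are the single libraries, open diamonds are the pooled lists, the dashed line marks the list's median, and a missing point means that the list has no peak there. The site between PGLYRP4 and S100A9 stands at 2.11 in the pooled KQ list and 5.31 in the pooled wild-type list, and LCE3A, KPRP, the S100A9 start and NPR1 have wild-type points only.

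The wild-type peaks that overlapped a KQ peak had a median fold of 10.5 (range 5.58 to 32.6, n = 5), and those that did not had a median of 5.64 (range 3.42 to 9.69, n = 21). The ranges overlap, and all of these peaks come from the pooled wild-type list. Pooled tags at the summit had a median of 48 where a KQ peak overlapped and of 19 where none did. These sets were formed from the lists, so they are described without a test.

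Of the 5 pooled KQ summits, 0 lay within 1 kb of a protein-coding start site, against 5.56% of the 2645 pooled KQ summits on the chromosomes of the start-site table, and the exact upper limit at this number is 52.2%. Of the 26 pooled wild-type summits, 6 did, 23.1% with an exact interval of 8.97% to 43.6%, against 6.52% of the 23605 pooled wild-type summits on those chromosomes. They were at LCE3A, S100A9, S100A6, S100A3 and, with a pair, S100A16. Reproducible among these 6 were LCE3A and S100A9. Start sites are closely spaced in this interval, whose members hold 71 of the 22155 promoters within 1.7 Mb. The comparison with all chromosomes was not adjusted for this.

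**Figure D4:**
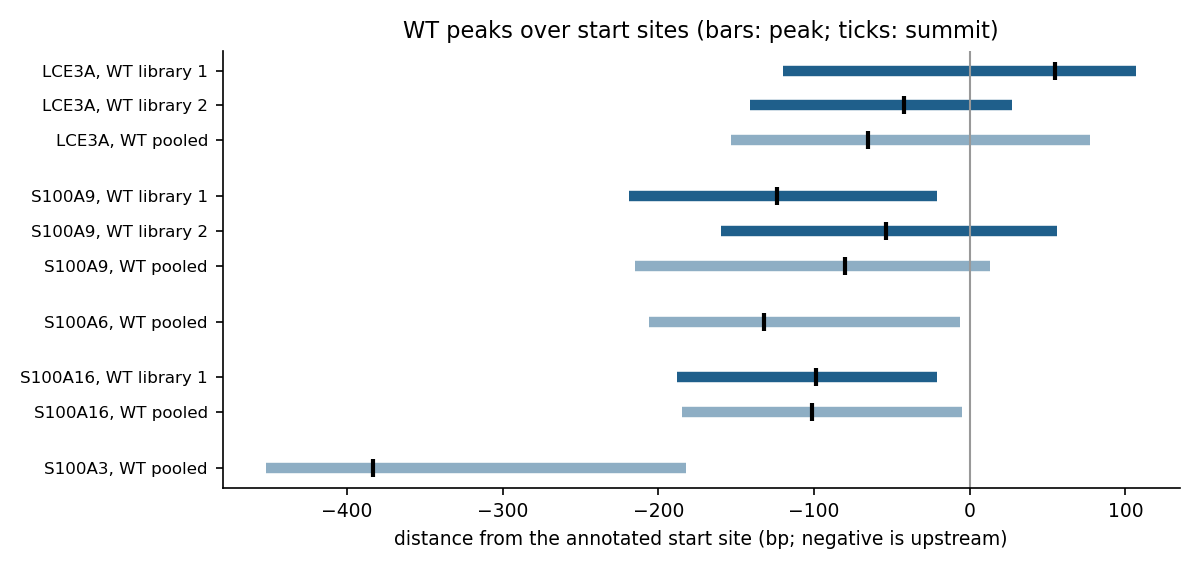
Wild-type (WT) peaks that overlap the annotated promoter of a member gene, no KQ peak being among them. The x axis is distance in bp from the start site, negative upstream, the bars span each peak, dark for single libraries and pale for the pooled list, and the black ticks are summits. LCE3A and S100A9 have bars from both libraries, and their pooled summits lie at -65 and -80.

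By gene, 14 of the 66 members (21.2%) had a pooled KQ summit within 50 kb of their span, against 16.4% of all protein-coding genes, and 48 (72.7%) had a pooled wild-type summit, against 67.1%. For reproducible peaks the counts were 5 members (7.58%) in KQ, against 2.68% of all genes, and 27 (40.9%) in wild type, against 37.7%. The 5 KQ genes were PGLYRP3, PGLYRP4, S100A9, S100A12 and S100A8, and all of them rest on the 1 site between PGLYRP4 and S100A9. Neighbours share peaks here, so genes are not independent. With a window of 5 kb the counts for reproducible peaks fell to 1 in KQ, against 1.09% of all genes, and to 5 (7.58%) in wild type, against 17.5%. A reproducible summit lay inside the span of 0 members in KQ, against 0.826% of all genes, and of 0 in wild type, against 13.7%. As the gene nearest to such a summit, 1 member was counted in KQ, against 1.65% of all genes, and 7 (10.6%) in wild type, against 23%. Many members are short and closely spaced, with lengths from 270 bp (LCE3A) to 53697 bp (SPRR2G). A short span leaves fewer bases for a summit to fall in. These counts were not adjusted for gene length or spacing, so the lower shares are not a result about binding at these genes.

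Split by family, reproducible peaks within 50 kb were found in KQ for 3 of 15 S100 genes and both PGLYRP genes, and for 0 genes of the other families. In wild type they were found for 9 S100 genes, both PGLYRP genes, 10 of 19 LCE genes, 2 of 8 other envelope genes (KPLCE and KPRP) and all 4 neighbours, and for 0 of 11 SPRR and 0 of 7 fused-type genes. The 10 LCE genes rest on the pair of peaks at LCE3A and the peak upstream of KPRP. At 5 kb, 1 LCE gene remained. Of all protein-coding genes, 2.68% had a reproducible KQ peak and 37.7% a reproducible wild-type peak within 50 kb. Any pooled KQ peak was found for 9 S100, 2 PGLYRP and 2 fused-type genes and for CHTOP, which encodes an RNA-export factor. Any pooled wild-type peak was found for 14 S100, 14 LCE and 8 SPRR genes, both PGLYRP genes, 2 fused-type and 4 other envelope genes and all 4 neighbours.

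**Figure D5:**
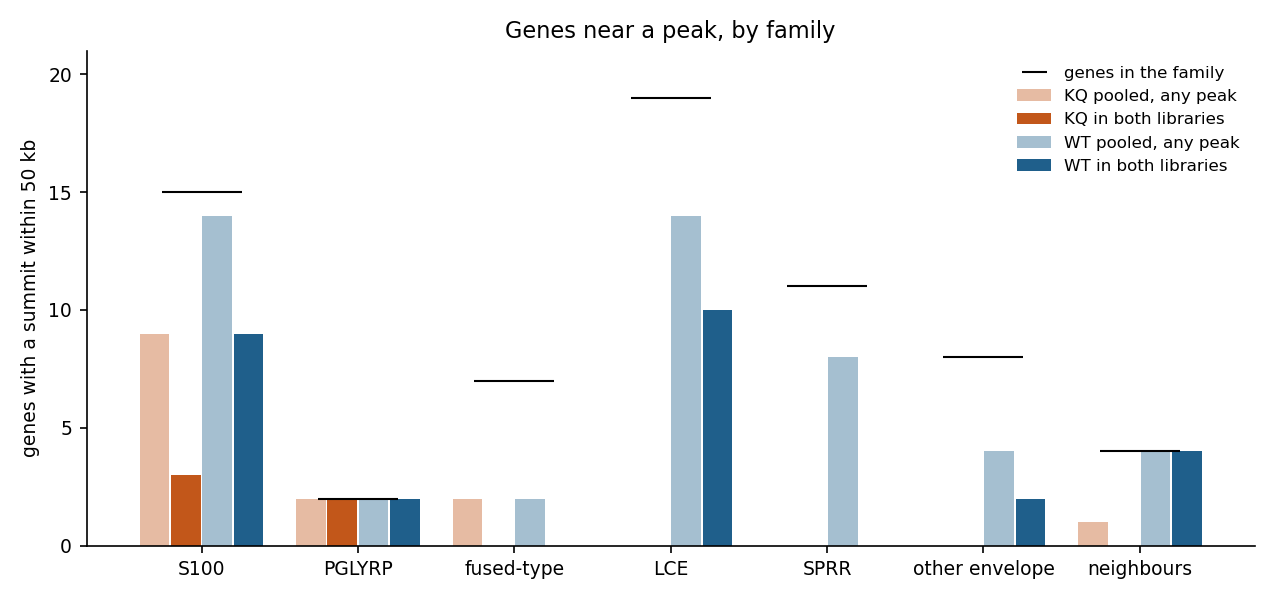
Members of the complex with a peak summit within 50 kb of their span, by family. The y axis is the number of genes, KQ bars stand left of wild-type bars, pale bars count any pooled peak, dark bars count reproducible peaks and the black lines give the size of each family. KQ bars are seen at S100, PGLYRP, fused-type and neighbour genes, and the LCE, SPRR and other envelope genes have wild-type bars only.

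Genes with the same function elsewhere in the genome were described from a list of 32 envelope, desmosome and keratinocyte differentiation genes outside the complex. Of these, 5 (15.6%) had a reproducible KQ peak within 50 kb, against the same 2.68% of all genes, and 15 (46.9%) had a reproducible wild-type peak, against 37.7%. The 5 KQ genes rest on 4 sites, all outside the gene spans. The distances were 37.7 kb from DMKN, 27.8 kb from KRTDAP, 19.8 kb from PPL, 17.1 kb from GRHL1 and 38.3 kb from DSG1. One site is shared by the neighbours DMKN (dermokine) and KRTDAP (keratinocyte differentiation-associated protein), at chr19:35459364-35459648. Its fold was 11.5 in KQ library 1, 10.4 in KQ library 2 and 13.7 in the pooled KQ list. In wild type the fold there was 11.3 in library 1 and 11.4 in the pooled list, with no peak in library 2. The site near PPL (periplakin, which links the envelope to keratin) had folds of 4.63, 4.54 and 5.81 in KQ library 1, KQ library 2 and the pooled KQ list. In wild type the folds there were 14.04, 10.8 and 15.2 in library 1, library 2 and the pooled list. Near GRHL1, a transcription factor of epidermal differentiation, the KQ site had folds of 8.04 in library 1, 4.23 in library 2 and 6.32 in the pooled list, and in wild type 13.8, 14.2 and 14.02. Near the desmosomal cadherin DSG1 the KQ site had folds of 5.24 in library 1, 7.21 in library 2 and 6.63 in the pooled list. In wild type the folds there were 16.1 in library 1 and 9.85 in the pooled list, with no peak in library 2. Among reproducible wild-type peaks, the highest pooled folds on this list were near GRHL1 (19.9, 7.87 kb outside the gene) and at the transglutaminase TGM5 (17.8). With a window of 5 kb the counts were 0 in KQ, against 1.09% of all genes, and 8 (25%) in wild type, against 17.5%. The counts on this list were not adjusted for gene length or local peak density. The list was chosen with earlier results of these data known, so the higher shares are a description with no test.

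At the limits of the interval, the outermost pooled KQ peaks inside it lay 29.4 kb and 98.5 kb from the limits, with folds of 3.94 and 4.69. The nearest outside lay 19.3 kb below, with a fold of 3.27, and 91.3 kb above, with a fold of 4.74. For wild type the outermost inside lay 9.94 kb and 0.699 kb from the limits, with folds of 5.64 and 3.42, and the nearest outside lay 4.85 kb below, with a fold of 5.49, and 91.2 kb above, with a fold of 11.7.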

How the data were processed

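The files are peak lists of 4 ChIP libraries and 2 pooled lists, 6 in all. Per the submitters' processing notes, the build was hg38 and Bowtie2 (version 2), MACS2, bedtools, deepTools and HOMER were named. Caller settings and any use of input were not given in the sources used here. Each deposited list gives fold enrichment (a ratio over the caller's background), −log10 of the p-value and q-value, a score that is 10 times −log10 q, and a summit, all the authors' values. Fold was used to describe and rank peaks within a list and to recover tags. Total read depth is not in these lists.

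Tags at a summit (k) and the expected number (e) were solved from the deposited fold, read as (k+1)/(e+1), and from the p-value, read as a Poisson upper tail. A whole number within 0.002 tags was found for 99.1% to 100% of peaks in each list. The solver was tested on data simulated with the same formula, all with more expected tags than the median of wild-type library 2 (0.448). The test thus does not cover peaks with so few expected tags, and it cannot check which formula the caller used. Poisson intervals cover counting error only.

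Genes, start sites and promoters came from RefSeq GRCh38.p14, whose promoter table holds 62 of the 66 members and no chromosome 8. A gene has a peak when a summit falls within 50 kb of its span, without regard to strand. Named sites are all reproducible pooled peaks, all pooled KQ peaks, the 5 highest pooled folds per group and chains of at least 3 wild-type peaks, and others named were chosen after their values were seen. The interval, the members and the gene lists were chosen with earlier results of these data known. Exons and introns were not told apart. Computation used Python 3.11.15, numpy 2.4.6, pandas 2.3.3, scipy 1.17.1 and matplotlib 3.10.9.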

Additional observations from a re-analysis of the deposited data

How the results depend on the processing

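Of 29 alternatives to 8 results, 15 left the value within its spread, its exact interval or 1.5 times the count, 14 moved it further and 0 reversed it. Among the 15, the share of wild-type peaks with a KQ peak was 37.5% for reproducible peaks only, against 19.2% for all, within the wide exact interval. The KQ minus wild-type difference in peaks per library was -13, ran from -16 to -10 when a library was left out, and was -13 with the replicate number as a block. The labels do not say whether same-numbered libraries were prepared together. Deviations of same-numbered libraries had r = -0.011 over 313 sites with a peak in all 4. These sites were selected for a peak in every library, so the value cannot settle this. Limiting the interval to the core of the complex, which ends before the site between PGLYRP4 and S100A9, gave a difference of -5.5, 0 reproducible KQ and 3 reproducible wild-type peaks. With a library left out, pooled peaks found in the remaining library alone were counted, 1 to 3 in KQ and 10 to 16 in wild type. By construction these counts cannot fall below the reproducible ones. When only as many of the strongest wild-type peaks were kept as the KQ list has, 80% of those in the interval overlapped a KQ peak, with no genome-wide share at hand for this setting. Genes with a reproducible KQ peak numbered 1 at 5 kb, 0 inside the span and 1 by nearest gene, and those with a reproducible wild-type peak 5, 0 and 7. Elsewhere the envelope genes numbered 0 in KQ and 8 in wild type at 5 kb. Fewer bases searched account for the window counts by construction. The core is a shorter stretch, so its reproducible counts could only stay or fall. The cause of the remaining moves was not tested. The lowest number of tags at a peak of the interval was 23 in the pooled KQ list and 8 in the pooled wild-type list, and total depth was not given.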

Other observations

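Some single-library peaks in the interval had no counterpart in their pooled list. KQ had 0. Wild-type library 1 had 2, at 44.6 kb upstream of CRNN (fold 5.15, 8 tags) and 0.814 kb upstream of S100A2 (fold 5.05, 12 tags). Wild-type library 2 had 2, at 21.3 kb from HRNR (fold 6.91, 9 tags) and 8.67 kb from CRCT1 (fold 4.29, 4 tags). The CRNN, HRNR and CRCT1 peaks fall near or in the stretch around filaggrin that has no pooled peak. The HRNR peak lies in the noncoding RNA gene CCDST, as does the nearest pooled wild-type peak (fold 7.75), which was found in library 1 only.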
